A study of Mus musculus with 24 samples.

Results

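Retinas of 2 month old mice with the P347S mutation (P347S+) were compared with retinas of 2 month old normal mice (P347S-). The means compared came from 6 of the 24 arrays of the study, 3 for each genotype, chosen by genotype and age in the sample titles. The spread behind each standard error and p-value was estimated over all 24 arrays, not over these 6 alone. All 1246 probe sets of a glycan-focused array were tested, of which 963 carried an accession that led to 1 of 909 mouse genes. The study followed both genotypes at 1, 2, 3 and 4 months to relate glycan and glycan-binding genes to the stages of photoreceptor loss. The 2 month mutant group held total retinal RNA of the P347S rhodopsin transgenic line, and the 2 month normal group the same material from mice without the mutation. Strain, transgene promoter and rhodopsin dosage were not given in the sources used here, and sex was labelled unknown. Whether replicates are different animals is not stated, and p-values therefore reflect only the spread between these samples, which may be technical.

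P347S replaces a proline near the end of rhodopsin, in the stretch that directs the protein to the rod outer segment, and rods carrying the change die slowly. In a retina that is losing rods, microglia, the resident macrophages, and Müller glia, the supporting glia, are known to change state. Glycan enzymes of the endoplasmic reticulum and Golgi build the sugars of receptors and matrix proteins, and lectins, selectins and growth factors bind them. Of the rod and cone list only Gnb1, which encodes a G protein subunit of phototransduction and of many other cells, was measured, and rhodopsin was not among the 909 named genes, so rod content could not be read from these arrays. Gnb1 read 13.02, 13.12 and 13.14 in normal and 12.93, 12.67 and 12.84 in mutant retinas. The groups did not overlap, but the difference of -0.28 ± 0.12 (log2, standard error, n = 3 per genotype) did not pass (adjusted p = 0.229). L1cam was the only measured inner retinal neuron marker, with a difference of 0.06 (adjusted p = 0.905).

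The upstream windows of 3 genes are shown because Glycam1 had the largest rise and because Btc and Jag1 were the named genes that passed both with and without the second pair of arrays. Each window runs from 250 bases before to 50 bases after the annotated start, in GRCm38.p6, from RefSeq, printed 5′ to 3′ along the gene. Capitals mark matches on either strand to GAGGAA (the PU box bound by PU.1), TAATCC (the Crx and Otx homeodomain core) or TTCNNNGAA (the STAT dimer site).
Glycam1, chr15:103565032-103565331, minus strand: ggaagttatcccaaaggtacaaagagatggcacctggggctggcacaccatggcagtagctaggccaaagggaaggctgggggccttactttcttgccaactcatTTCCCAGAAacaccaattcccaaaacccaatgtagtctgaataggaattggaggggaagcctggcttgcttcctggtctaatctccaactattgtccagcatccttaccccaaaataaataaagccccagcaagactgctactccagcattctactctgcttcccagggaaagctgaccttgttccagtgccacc
Btc, chr5:91402945-91403244, minus strand: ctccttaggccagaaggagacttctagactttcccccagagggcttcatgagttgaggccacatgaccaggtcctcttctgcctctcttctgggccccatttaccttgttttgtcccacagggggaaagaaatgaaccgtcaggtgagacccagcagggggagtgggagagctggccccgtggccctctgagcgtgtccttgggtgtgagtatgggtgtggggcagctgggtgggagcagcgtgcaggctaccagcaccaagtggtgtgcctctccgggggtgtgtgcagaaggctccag
Jag1, chr2:137116471-137116770, minus strand: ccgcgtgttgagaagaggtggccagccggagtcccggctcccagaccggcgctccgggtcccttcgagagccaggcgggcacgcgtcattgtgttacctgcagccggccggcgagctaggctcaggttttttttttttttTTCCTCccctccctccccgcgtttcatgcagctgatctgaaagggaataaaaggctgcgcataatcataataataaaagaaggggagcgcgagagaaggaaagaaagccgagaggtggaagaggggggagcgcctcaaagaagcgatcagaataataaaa
The capitals in Glycam1 are a STAT match that begins 145 bases before the start, those in Jag1 a PU box match on the other strand that begins 110 bases before it, and the Btc window held no match. Over the windows of 27025 genes, GAGGAA occurred in 31.3%, TAATCC in 8.1% and TTCNNNGAA in 9.6%. Of the 21 genes that rose 16 had a window, of which 5, 0 and 1 held these motifs. Of the 28 genes that fell 21 had a window, of which 8, 1 and 2 held them. A match in these letters is a description and not a site, and a missing match says nothing of the factor.

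At 2 months 63 of the 1246 probe sets (5.06%) differed between genotypes, 29 upward (2.33%) and 34 downward (2.73%), in limma's moderated test with same-numbered arrays as blocks and a Benjamini-Hochberg adjusted p under 0.05. They covered 49 of the 909 named genes, 21 higher (2.31%) and 28 lower (3.08%), and 12 probe sets with no matched gene. An unadjusted p under 0.05 was found for 202 probe sets. The rises included the lymphoid mucin Glycam1, the EGF receptor ligand Btc, the microglial receptors Cx3cr1, Csf1r and Adgre1, and the cytokine Csf1. The falls included the Golgi mannosidase Man2a2, the Notch ligand Jag1, the mannose receptor relative Pla2r1, the transcription factor Prdm1 and the chondroitin sulfotransferase Chst3. All 63 had 3 same-numbered differences of one sign, which 34.3% of all probe sets had. In 59 of the 63 the 3 mutant and 3 normal values did not overlap, against 17.4% of all probe sets. Lgals9, Arsb, Cpsf7 and Angptl2, the other 4, overlapped. The smallest called difference was 0.30 on the log2 scale, or 1.23-fold. Without the replicate 2 pair, which carried a high lens signal in both genotypes, 4 probe sets passed (0.321%): those of Btc and Jag1 and 2 with no matched gene. With only the 6 arrays of 2 months in the limma fit, 16 probe sets passed with the block and 2 without it. In the 6-array fit with the block neither Btc nor Jag1 passed (adjusted p = 0.0634 for both).

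**Figure D1:**
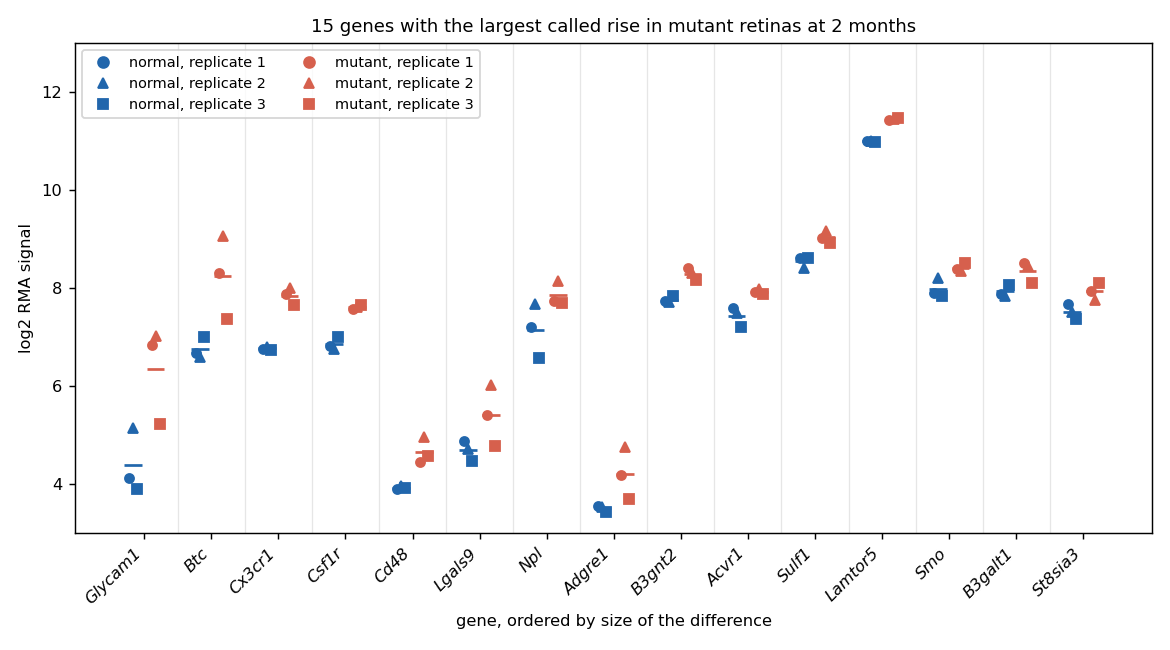
Log2 RMA signal (vertical axis) of the 15 genes with the largest called rise at 2 months, with normal arrays in blue, mutant arrays in red, a symbol for each replicate number and a bar at each group mean. Mutant values lie above all normal values in every gene but Lgals9, and the spread within the mutant group is widest for Glycam1 and Btc.

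Glycam1, a mucin-like glycoprotein that carries ligands of L-selectin on lymph node vessels, read 4.13, 5.14 and 3.89 in normal and 6.83, 7.01 and 5.22 in mutant retinas (log2 RMA signal, replicates 1, 2 and 3). Its 3 mutant values lay above all normal values, with mutant replicate 3 only just above normal replicate 2. The rise was 1.97 ± 0.48 (log2, standard error, n = 3 per genotype), or 3.91-fold (limma, adjusted p = 0.0306). It was 2.01 without replicate 2 and no longer passed (adjusted p = 0.139, with a range over the 22 alternatives of 0.00567 to 0.393). Of the 9 measured selectins and selectin ligands Glycam1 was the only one to pass (2.31% of all named genes rose). Cd34, a sialomucin that can also carry L-selectin ligands, differed by 0.20 (adjusted p = 0.576), and endomucin (Emcn) by -0.49 (adjusted p = 0.12). The list's median difference was -0.01, against 0.01 over all 909 genes.

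Btc encodes betacellulin, a ligand of the EGF receptor and of Erbb4. It read 6.67, 6.60 and 7.0 in normal and 8.30, 9.05 and 7.37 in mutant retinas. The groups did not overlap, and the same-numbered differences were smallest in replicate 3. The rise was 1.48 ± 0.23 or 2.80-fold (adjusted p = 0.00154). Without replicate 2 it was 1.00 (adjusted p = 0.0494), and 21 of 23 alternatives kept the call (adjusted p from 1.43e-06 to 0.152). Btc alone passed among the 6 measured EGF ligands and receptors (2.31% of all named genes rose). Areg, another ligand, differed by 0.30 (adjusted p = 0.191), the receptor Egfr by 0.04 (adjusted p = 0.913) and Erbb4 by 0.12 (adjusted p = 0.517).

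Microglial genes rose in part. Of 11 measured microglia and macrophage markers 3 rose (2.31% of all named genes did), none fell and 8 did not pass, with a list median of 0.07 against 0.01 for all named genes. In whole retina, more cells of a type and more RNA per cell cannot be told apart. Cx3cr1, the fractalkine receptor of microglia, read 6.76, 6.80 and 6.74 in normal and 7.87, 8.0 and 7.66 in mutant retinas. Mutant and normal values were well separated, and the rise was 1.07 ± 0.20 or 2.11-fold (adjusted p = 0.0048). Without replicate 2 it was 1.01 (adjusted p = 0.102), and it passed in 20 of 23 alternatives (adjusted p from 0.00038 to 0.102).

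Csf1r, the receptor on which microglial survival depends, read 6.81, 6.75 and 6.99 in normal and 7.57, 7.60 and 7.65 in mutant retinas, a rise of 0.76 ± 0.19 (adjusted p = 0.0333). Every mutant value exceeded every normal value. The Csf1r difference was 0.71 without replicate 2 (adjusted p = 0.188), and 14 of 23 alternatives kept the call. The Csf1r ligand Csf1 rose in both of its probe sets, by 0.39 ± 0.11 (adjusted p = 0.0482) and 0.41 ± 0.10 (adjusted p = 0.0357). Without replicate 2 these probe sets differed by 0.40 and 0.39 and no longer passed (adjusted p = 0.207 and 0.188). For the first probe set 8 of 23 alternatives kept the call. The 3 mutant values of the first, 7.54, 7.63 and 7.62, lay above the normal values of 7.19, 7.25 and 7.18. Adgre1, which encodes a surface protein of macrophages, had low signals of 3.56, 3.52 and 3.43 in normal and 4.18, 4.75 and 3.69 in mutant retinas, and rose by 0.70 ± 0.18 (adjusted p = 0.0333). Without the replicate 2 pair the difference was 0.44 (adjusted p = 0.389), without mutant replicate 2 alone 0.43 (adjusted p = 0.301), and 10 of 22 alternatives kept the call (adjusted p from 0.00113 to 0.389). Siglech, a microglial sialic acid receptor, differed by 0.39, 0.27 and 0.17 in its 3 probe sets and did not pass. Mrc1, a mannose receptor of perivascular macrophages, differed by -0.20 (adjusted p = 0.267) and Siglec1, found on border macrophages, by 0.02 (adjusted p = 0.952).

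Among immune genes outside that list, Cd48, a surface protein of blood cells, read 3.89, 3.96 and 3.91 in normal and 4.44, 4.95 and 4.58 in mutant retinas, a rise of 0.74 ± 0.21 (adjusted p = 0.0488). Without replicate 2 it was 0.61 (adjusted p = 0.35). Itgae, the integrin chain of resident T cells, went the other way, with 7.75, 7.88 and 7.59 in normal and 5.86, 6.64 and 7.47 in mutant retinas. Mutant replicate 3 came close to the normal values, and the fall of -1.09 ± 0.31 passed narrowly (adjusted p = 0.0488, from 0.00665 to 0.298 over 23 alternatives). Without the replicate 1 pair it was -0.68 (adjusted p = 0.298) and without mutant replicate 1 alone -0.69 (adjusted p = 0.273). These 2 were the called genes of the 7 measured blood and leukocyte markers, whose mean level ran from 4.48 to 4.50 in normal and from 4.21 to 4.69 in mutant retinas. None of 29 chemokines passed in limma, where 2.31% of all named genes rose and 3.08% fell. Cxcl10 came nearest, with a difference of 0.40 (adjusted p = 0.0522), and the monocyte attractant Ccl12 differed by 0.66 (adjusted p = 0.126). Of 20 chemokine receptors and 49 cytokine receptors only Cx3cr1 and Csf1r passed, 1 in each list.

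Markers of reactive glia were all on the positive side but none of the 6 measured passed (2.31% of all named genes rose). Vcam1, an adhesion molecule, read 6.72, 6.26 and 6.48 in normal and 7.09, 7.32 and 6.79 in mutant retinas, a difference of 0.58 ± 0.17 (adjusted p = 0.0522). The groups did not overlap. Without replicate 2 Vcam1 differed by 0.34 (adjusted p = 0.576). Fgf2, a survival factor for photoreceptors, differed by 0.35 ± 0.10 (adjusted p = 0.0589). It was dim, with a mean of 3.57 over all 24 arrays, below the 25th percentile of mean signal at 3.83. Icam1 differed by 0.54 (adjusted p = 0.265) and the hyaluronan receptor Cd44 by 0.70 ± 0.31 (adjusted p = 0.256). Cd44 also moved with the replicate number, at 6.28, 8.69 and 7.01 in normal and 7.62, 9.23 and 7.24 in mutant retinas. The list's median difference was 0.44, against 0.01 over all named genes.

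Of 10 galectins and relatives, 1 rose (2.31% of all named genes did). Lgals9, a galectin with a pair of sugar-binding domains, read 4.87, 4.72 and 4.48 in normal and 5.41, 6.03 and 4.77 in mutant retinas, a rise of 0.71 ± 0.18 (adjusted p = 0.0357). Mutant replicate 3 lay inside the normal range, and the difference was 0.42 without the replicate 2 pair (adjusted p = 0.442) and 0.40 without mutant replicate 2 alone (adjusted p = 0.403). Galectin-1 and galectin-3, which the study names as its point of departure, did not pass. Lgals1 read 8.33, 9.89 and 9.38 in normal and 8.91, 9.89 and 9.23 in mutant retinas, a difference of 0.14 ± 0.24 (adjusted p = 0.831). Lgals3 read 6.68, 8.44 and 7.45 in normal and 7.08, 8.06 and 6.79 in mutant retinas, a difference of -0.21 ± 0.25 (adjusted p = 0.746). Both genes were highest in replicate 2 of either genotype.

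**Figure D2:**
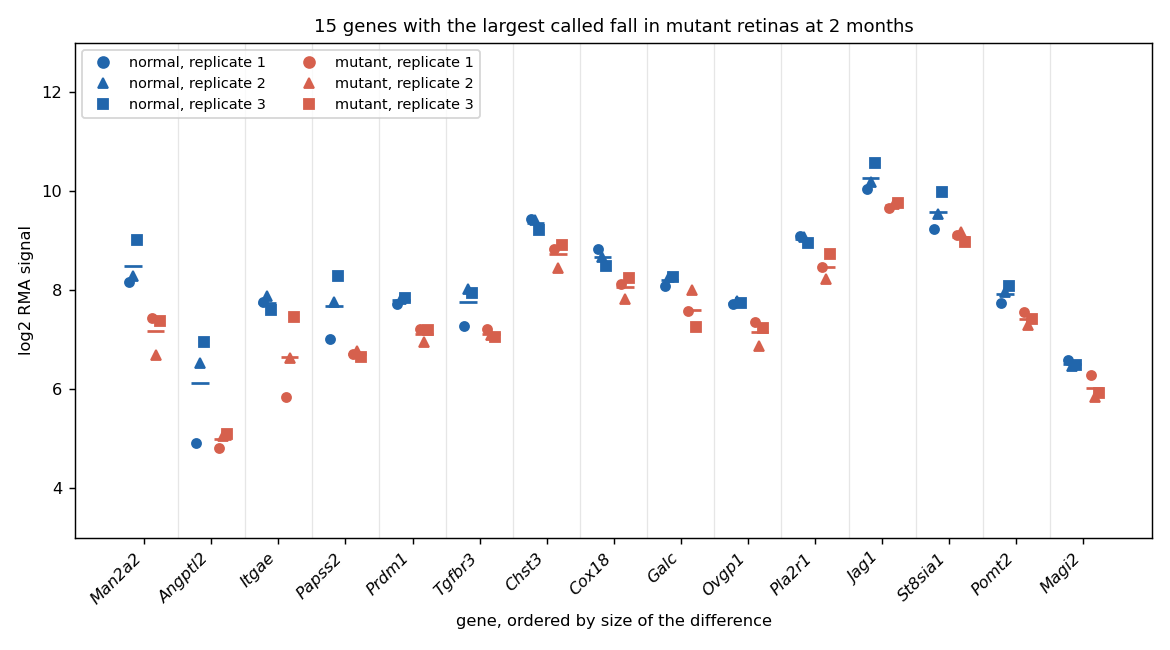
Log2 RMA signal (vertical axis) of the 15 genes with the largest called fall at 2 months, drawn as for the rises. Mutant values lie below all normal values in every gene but Angptl2, and in Angptl2, Papss2 and Tgfbr3 normal replicate 1 lies nearer the mutant values than the other normal arrays do.

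In N-glycan processing 1 of 11 measured genes fell and none rose (3.08% and 2.31% of all named genes did). Man2a2, a Golgi mannosidase that trims N-glycans on the way from hybrid to complex forms, read 8.16, 8.30 and 9.01 in normal and 7.45, 6.70 and 7.38 in mutant retinas. The groups did not overlap. The fall of -1.31 ± 0.22 left 0.402 times the normal signal (adjusted p = 0.0037). It was -1.17 without replicate 2 (adjusted p = 0.102), and 19 of 23 alternatives kept the call (adjusted p from 0.000506 to 0.142). The related Man2a1 differed by -0.12 (adjusted p = 0.724), and Mgat1, which acts just before these mannosidases, by -0.43 (adjusted p = 0.0958).

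Of 26 genes for mucin-type O-glycans 2 fell and 24 did not pass, with a list median of 0.05 (3.08% of all named genes fell). Galnt4 and Galnt7, which act at the start of mucin-type O-glycans, fell by -0.48 ± 0.11 (adjusted p = 0.0222) and -0.46 ± 0.13 (adjusted p = 0.0482). In Galnt7 the mutant replicate 3 value of 6.22 stood below 6.87 and 6.89 in the other mutant arrays, against 7.03, 7.10 and 7.22 in normal retinas. Its difference was -0.18 without the replicate 3 pair (adjusted p = 0.565) and -0.23 without mutant replicate 3 alone (adjusted p = 0.235). Of 24 galactosyl- and N-acetylglucosaminyltransferases 2 rose, 1 fell and 21 did not pass, with a list median of 0.01 (2.31% of all named genes rose and 3.08% fell). B3gnt2, which extends polylactosamine chains, rose by 0.54 ± 0.14 (adjusted p = 0.0416), and differed by 0.51 without replicate 2 (adjusted p = 0.223). B3galt1 rose by 0.42 ± 0.12 (adjusted p = 0.049), with 0.41 in its second probe set. In the first the replicate 3 difference was only 0.04, and 7 of 23 alternatives kept the call. Without replicate 2 the B3galt1 differences were 0.33 and 0.29 (adjusted p = 0.395 for both). B4galt1, which adds galactose to N-acetylglucosamine, fell by -0.40 ± 0.10 (adjusted p = 0.0303). In the O-mannose and O-GlcNAc list 1 of 9 genes fell (3.08% of all named genes did). Pomt2, a subunit of the enzyme that starts O-mannose chains, fell by -0.50 ± 0.14 (adjusted p = 0.0482) while its partner Pomt1 differed by -0.07 (adjusted p = 0.87). Without replicate 2 Pomt2 differed by -0.42 (adjusted p = 0.34).

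Of 19 sialyltransferases 1 rose, 2 fell and 16 did not pass, with a list median of -0.05 (2.31% of all named genes rose and 3.08% fell). St8sia1, the synthase of the ganglioside GD3, read 9.24, 9.54 and 9.99 in normal and 9.11, 9.17 and 8.97 in mutant retinas, a fall of -0.50 ± 0.14 (adjusted p = 0.049). Normal replicate 1 lay just above the mutant values, and the difference was -0.25 without the replicate 3 pair (adjusted p = 0.555) and -0.31 without normal replicate 3 alone (adjusted p = 0.411). St6galnac2, which caps O-glycans, fell by -0.47 ± 0.12 (adjusted p = 0.0358), and differed by -0.31 without the replicate 3 pair (adjusted p = 0.361). St8sia3, which joins sialic acids to one another, read 7.67, 7.50 and 7.36 in normal and 7.93, 7.75 and 8.11 in mutant retinas and rose by 0.41 ± 0.11 (adjusted p = 0.0482). Without the replicate 3 pair it differed by 0.25 (adjusted p = 0.435). St6galnac5, another ganglioside sialyltransferase, differed by 0.49 (adjusted p = 0.0522). Npl, the lyase that breaks down free sialic acid, rose by 0.70 ± 0.19 (adjusted p = 0.0438). It read 7.20, 7.67 and 6.57 in normal and 7.73, 8.13 and 7.69 in mutant retinas, so that mutant replicates 1 and 3 lay close to normal replicate 2. Without normal replicate 3 the difference was 0.41 (adjusted p = 0.534). No fucosyltransferase of 10 passed. Fut10 had a difference of 1.26 ± 0.40 (adjusted p = 0.0846) in one probe set and 0.40 ± 0.19 (adjusted p = 0.313) in the other.

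In each list of sulfated chains a single gene passed, where 2.31% of all named genes rose and 3.08% fell. Sulf1, a secreted enzyme that removes 6-O-sulfate from heparan sulfate, read 8.62, 8.41 and 8.61 in normal and 9.03, 9.16 and 8.92 in mutant retinas. It rose by 0.49 ± 0.11 (adjusted p = 0.0185), the only call among 29 heparan sulfate genes, whose median difference was 0.00. Chst3, which places 6-O-sulfate on chondroitin, read 9.44, 9.42 and 9.22 in normal and 8.83, 8.45 and 8.92 in mutant retinas. It fell by -0.63 ± 0.13 (adjusted p = 0.00937), 1 of 13 chondroitin and dermatan sulfate genes. The groups of neither gene overlapped. Without replicate 2 the differences were 0.36 for Sulf1 (adjusted p = 0.232) and -0.46 for Chst3 (adjusted p = 0.154). Papss2, which makes the sulfate donor used by all sulfotransferases, fell by -0.97 ± 0.21 (adjusted p = 0.0127), and Papss1, the other enzyme of that step, differed by 0.25 (adjusted p = 0.111). Papss2 and Npl were the called members of 35 genes for nucleotide sugars and their donors. Of 30 proteoglycan core proteins 1 fell, Tgfbr3, and the list's median was -0.09.

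Of 24 lysosomal enzymes of glycan breakdown 1 rose, 1 fell and 22 did not pass, with a list median of 0.00, shares close to those of all named genes (2.31% and 3.08%). Galc, which cleaves galactosylceramide, read 8.09, 8.26 and 8.27 in normal and 7.59, 8.0 and 7.25 in mutant retinas, a fall of -0.59 ± 0.17 (adjusted p = 0.049), with a difference of -0.38 without the replicate 3 pair (adjusted p = 0.448). Arsb, which removes sulfate from dermatan sulfate, rose by 0.34 ± 0.10 (adjusted p = 0.0496), with overlapping groups, and differed by 0.22 without normal replicate 3 (adjusted p = 0.571). Arsa, which acts on sulfatide, differed by 0.39 (adjusted p = 0.0589). All 3 adjusted p-values lay close to the threshold.

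Among signalling genes Jag1, a membrane ligand of Notch receptors, read 10.04, 10.19 and 10.57 in normal and 9.67, 9.74 and 9.76 in mutant retinas. The groups did not overlap, and the fall of -0.54 ± 0.10 (adjusted p = 0.0039) was -0.59 without replicate 2 (adjusted p = 0.0494, from 0.00251 to 0.173 over 23 alternatives). No other of 18 Notch pathway genes passed, where 3.08% of all named genes fell. The ligand Dll1 differed by -0.41 (adjusted p = 0.159), the nuclear effector Rbpj by -0.27 (adjusted p = 0.155) and Notch1 by 0.10 (adjusted p = 0.777). Prdm1, a repressor that favours photoreceptor over bipolar cell fate in the developing retina, read 7.73, 7.82 and 7.85 in normal and 7.22, 6.95 and 7.21 in mutant retinas. It fell by -0.67 ± 0.14 (adjusted p = 0.00977) with no overlap, and differed by -0.58 without replicate 2 (adjusted p = 0.138). Smo, the transducer of hedgehog signals, rose by 0.43 ± 0.12 (adjusted p = 0.0482), 1 of 34 Wnt, Frizzled and hedgehog genes (2.31% of all named genes rose). Acvr1, a type I receptor for bone morphogenetic proteins, rose by 0.50 ± 0.13 (adjusted p = 0.0358). Fgf13, an intracellular FGF relative, rose by 0.33 ± 0.09 (adjusted p = 0.0482). Without replicate 2 Smo differed by 0.58, Acvr1 by 0.50 and Fgf13 by 0.37, and none passed (adjusted p = 0.102, 0.17 and 0.145). Of 23 alternatives 8, 12 and 6 kept their calls.

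Pla2r1, a mannose receptor family protein that binds secreted phospholipases, read 9.10, 9.07 and 8.95 in normal and 8.47, 8.22 and 8.73 in mutant retinas. All mutant values were lower. The fall of -0.57 ± 0.10 (adjusted p = 0.0039) was the single call among 50 C-type lectins and collectins (3.08% of all named genes fell). It was -0.42 without replicate 2 (adjusted p = 0.102) and passed in 20 of 23 alternatives (adjusted p from 0.00014 to 0.144). Ovgp1, a chitinase-like glycoprotein, fell by -0.59 ± 0.11 (adjusted p = 0.0045), from 7.72, 7.77 and 7.74 to 7.36, 6.88 and 7.24. Falls also passed for Cox18, a mitochondrial membrane insertase (-0.60 ± 0.14, adjusted p = 0.0226), and for the synaptic scaffold Magi2 (-0.49 ± 0.12, adjusted p = 0.0303). Lamtor5, a subunit of the lysosomal Ragulator complex, rose by 0.45 ± 0.11 (adjusted p = 0.0306), and its groups did not overlap. Smaller changes passed in Tmem165, a Golgi ion transporter (0.37 ± 0.08, adjusted p = 0.0175), in Dlg1, a scaffold of cell junctions (-0.38 ± 0.08, adjusted p = 0.0175), and in Fryl (-0.37 ± 0.07, adjusted p = 0.0039). Pigp rose by 0.32 ± 0.09 and Piga fell by -0.35 ± 0.10 (adjusted p = 0.049 for both). Both encode subunits of the enzyme that starts GPI anchors, and each kept its call in 1 of the 6 fits without 1 array. Without replicate 2 none of the genes from Ovgp1 to Piga in this paragraph passed (adjusted p from 0.102 to 0.219). Of the 12 called probe sets with no matched gene 6 rose and 6 fell. The probe set with the smallest adjusted p, uc008juh.1_psr1_at, has no matched gene. It read 9.07, 9.26 and 9.38 in normal and 7.96, 7.19 and 8.15 in mutant retinas, a fall of -1.47 ± 0.17 (adjusted p = 9.04e-05).

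The arrays differed in lens and connective tissue signals. Grifin, a galectin-related gene of the lens and the only measured marker of the lens list, read 6.32, 11.33 and 6.36 in normal and 7.47, 11.29 and 7.64 in mutant retinas, so replicate 2 stood far above in both genotypes. The difference between genotypes, 0.80 ± 0.77, did not pass (adjusted p = 0.689). Other genes were high in replicate 2 of both genotypes as well. The glycosyltransferase B3gnt5 stood 3.72 above the mean of replicates 1 and 3, Igfbp7 2.93, Wnt7b 2.26, Fgfr3 2.15 and Wnt7a 1.74, and none of these 5 passed between genotypes (adjusted p from 0.75 to 0.942). Of the called genes Glycam1 stood 1.06 higher in replicate 2, Npl 0.60 higher and Man2a2 0.50 lower (-0.50). With log2 Grifin and log2 Dcn as covariates and no block, 6 probe sets passed, 2 higher and 4 lower, and Btc (1.56, adjusted p = 0.0279), Pla2r1, Ankrd17 and Fryl were the named genes among them. Dcn itself read lower in mutant retinas (-1.48), so that fit cannot separate Dcn from genotype.

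Connective tissue markers moved with part of the falls. Dcn, a small proteoglycan of connective tissue, read 4.60, 6.45 and 6.90 in normal and 4.23, 4.49 and 4.78 in mutant retinas, a difference of -1.48 ± 0.46 (adjusted p = 0.0714). Normal replicates 2 and 3 were high, and normal replicate 1 lay with the mutant arrays. The mean of all 7 measured markers of the list was 5.70, 6.70 and 6.78 in normal and 5.86, 5.86 and 5.90 in mutant retinas. None of the 7 passed in limma, their median difference was -0.47, and 6 of 7 were negative. The dimmest of them, Lum, ran from 2.61 to 3.75.

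**Figure D3:**
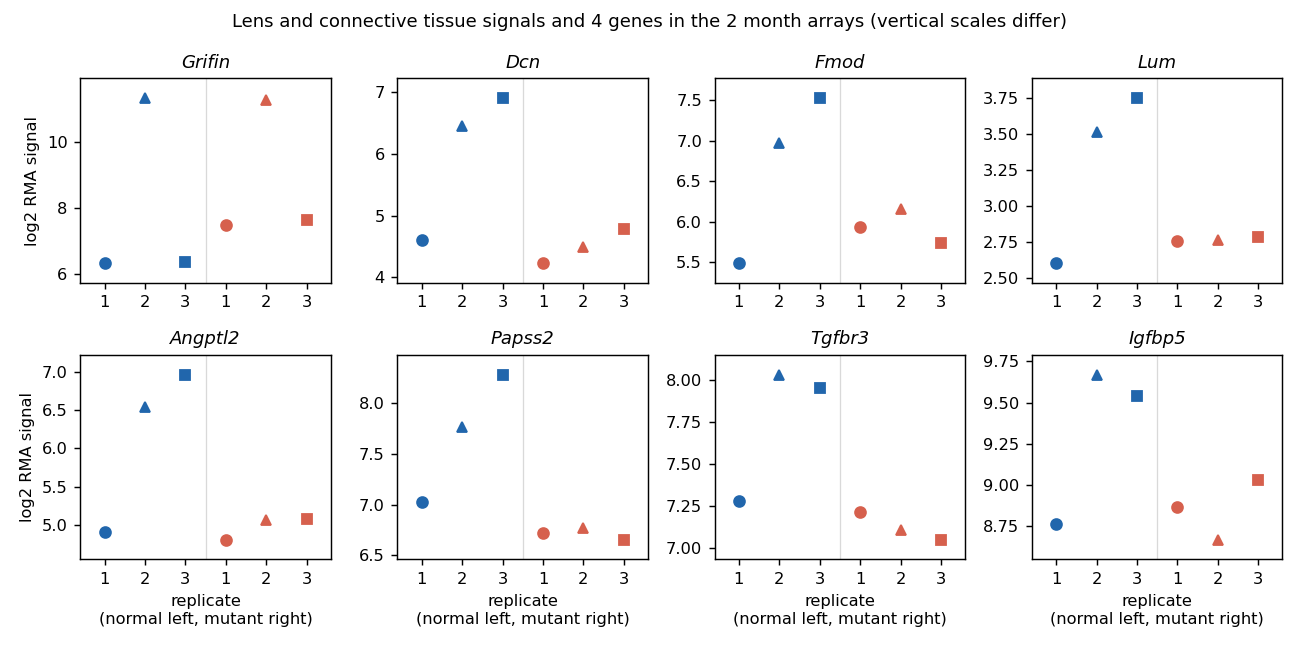
Log2 RMA signal (vertical axis, with its own scale in each panel) in the 6 arrays of 2 months, normal replicates in blue at the left and mutant replicates in red at the right. Grifin is high in replicate 2 of both genotypes, while Dcn, Fmod, Lum, Angptl2, Papss2, Tgfbr3 and Igfbp5 are highest in normal replicates 2 and 3.

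Papss2, Angptl2 and Tgfbr3 were also highest in normal replicates 2 and 3. Papss2 read 7.02, 7.76 and 8.28 in normal and 6.72, 6.77 and 6.66 in mutant retinas. Angptl2, a secreted angiopoietin relative, read 4.91, 6.54 and 6.96 in normal and 4.82, 5.06 and 5.09 in mutant retinas, a fall of -1.15 ± 0.28 (adjusted p = 0.0312). Tgfbr3, the proteoglycan co-receptor for TGF-beta called betaglycan, read 7.28, 8.03 and 7.95 in normal and 7.22, 7.11 and 7.05 in mutant retinas, a fall of -0.63 ± 0.18 (adjusted p = 0.0482). In all 3, normal replicate 1 lay nearer to the mutant arrays than the other normal arrays did, and in Angptl2 it lay among them. Without the replicate 3 pair the difference of Papss2 was -0.65 (adjusted p = 0.221). That of Angptl2 was -0.73 without normal replicate 3 (adjusted p = 0.46) and -1.76 without normal replicate 1 (adjusted p = 0.00043). With log2 Dcn added to the fit as a covariate, an alternative chosen after seeing the data, the differences were -0.66 for Papss2 (adjusted p = 0.322), -0.60 for Angptl2 (adjusted p = 0.494) and -0.26 for Tgfbr3 (adjusted p = 0.684). In that fit Btc differed by 1.67 (adjusted p = 0.0131), Itgae by -1.67 (adjusted p = 0.023), Pla2r1 by -0.59 (adjusted p = 0.044) and Ankrd17 by -0.46 (adjusted p = 0.044), and 6 probe sets passed in all. Ankrd17, an ankyrin repeat protein, had fallen by -0.44 ± 0.08 (adjusted p = 0.0039) without the covariate. Dcn itself read lower in mutant retinas (-1.48 ± 0.46), so this covariate overlaps with genotype. The fit therefore cannot separate what goes with Dcn from what goes with genotype. Whether Dcn stands for connective tissue in these RNA samples was not tested.

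The number of calls rested on single pairs and arrays. Leaving out the replicate 2 pair left 4 calls, leaving out the replicate 3 pair 23 and leaving out the replicate 1 pair 69, of which 41 were among the 63. Without the block, leaving out mutant replicate 1, 2 or 3 gave 41, 16 or 43 calls and leaving out normal replicate 1, 2 or 3 gave 62, 22 or 14. The direction of all 63 was kept in every alternative that tested them. As the 3 same-numbered differences of each had one sign, leaving out a pair could not reverse it. The call was kept in each of the 6 fits without 1 array by 10 probe sets: those of Btc, Cx3cr1, Ovgp1, Pla2r1, Fryl, Ankrd17 and Man2a2 and 3 with no matched gene. The size of the differences without replicate 2 stayed close for some genes, for example 2.01 for Glycam1 and 1.01 for Cx3cr1. Others shrank: Btc went from 1.48 to 1.00, Lgals9 from 0.71 to 0.42, Adgre1 from 0.70 to 0.44 and Chst3 from -0.63 to -0.46. Of the 29 rises 15, and of the 34 falls also 15, had their largest same-numbered difference in pair 2. The same count was not made over all probe sets, so it does not show whether pair 2 stands out.

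**Figure D4:**
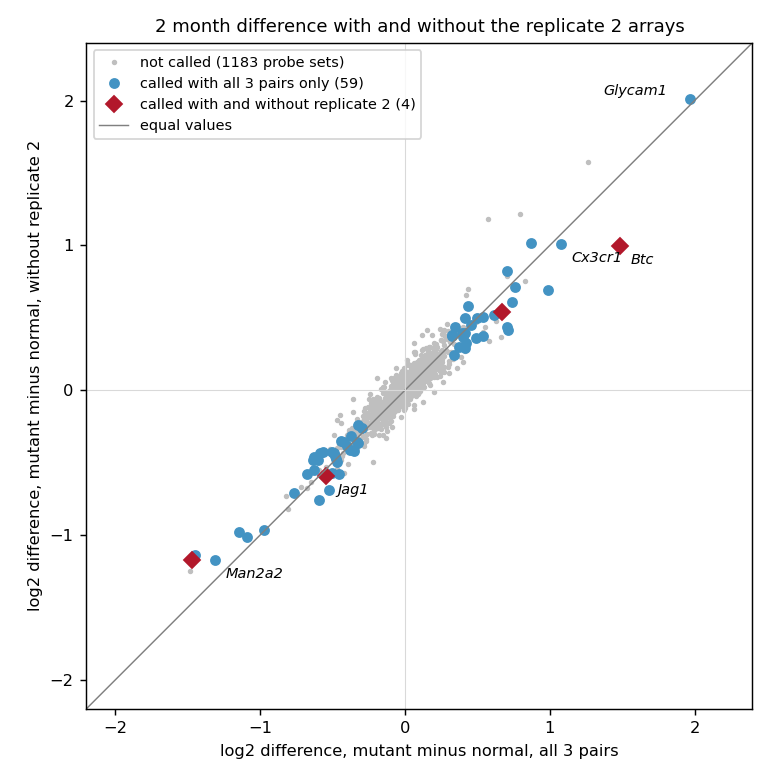
Log2 difference, mutant minus normal, of each probe set at 2 months with all 3 pairs (horizontal axis) and without the replicate 2 pair (vertical axis). Grey points were not called, the 59 blue points passed with all pairs only, the 4 red diamonds passed both ways, and the grey line marks equal values.

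The same genes were then read at the other ages, whose arrays had no part in the calls at 2 months except through the shared estimate of spread. Of the 29 rises 27, 28 and 27 had the same sign at 1, 3 and 4 months, against 41.2%, 38.8% and 46.5% of all probe sets, and 3, 21 and 21 were themselves called higher (0.321%, 7.38% and 10.3% of all probe sets). Their median differences were 0.32, 0.45 and 0.68, against 0.50 at 2 months. Of the 34 falls 21, 25 and 29 were negative at 1, 3 and 4 months, against 58.8%, 61.2% and 53.5% of all, and 1, 15 and 17 were called lower (0.0803%, 5.78% and 3.69%). Their median differences were -0.04, -0.29 and -0.37, against -0.51 at 2 months, and 1 probe set at 3 and 1 at 4 months was called the opposite way. Glycam1 and Btc were already higher at 1 month, by 2.38 and 2.08. Jag1, Chst3 and Prdm1 differed by -0.06, -0.15 and -0.08 at 1 month and by -0.57, -0.72 and -0.56 at 3 months. Other falls of 2 months read above 0 at 3 months: Tgfbr3 (0.81), Angptl2 (0.40), Galc (0.31), Papss2 (0.18), Magi2 (0.17) and Cox18 (0.12).

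**Figure D5:**
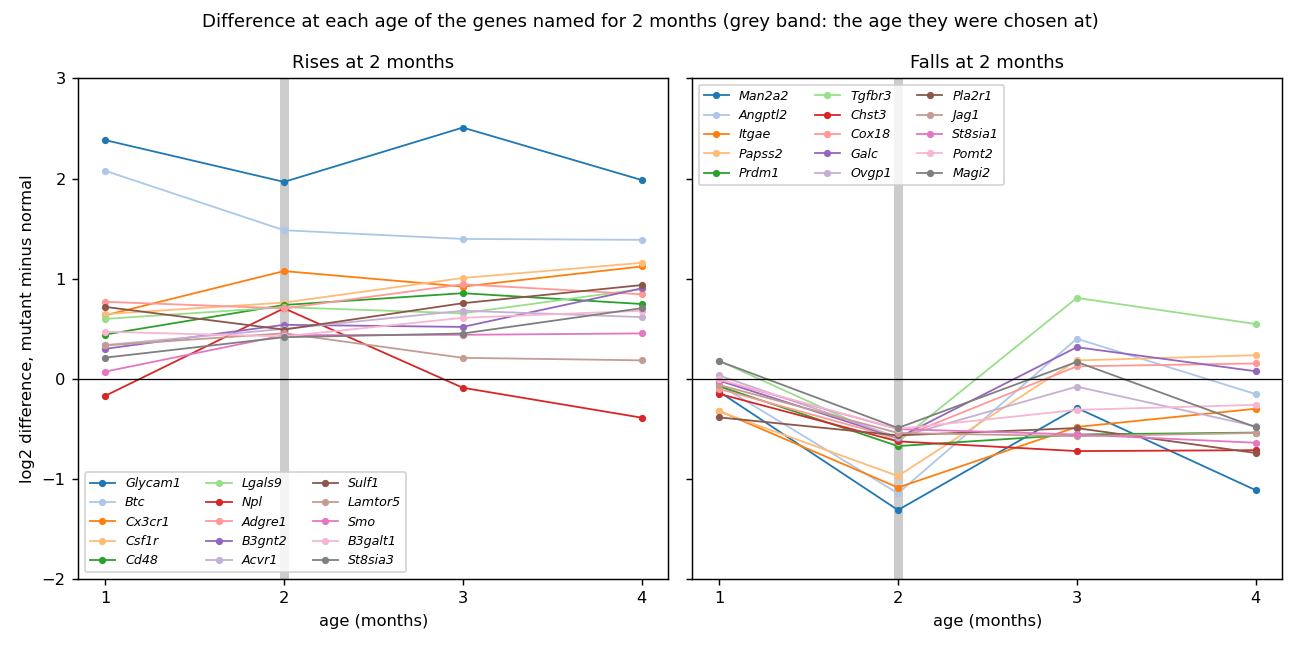
Log2 difference, mutant minus normal (vertical axis), at 1 to 4 months (horizontal axis) of the 15 named rises (left) and 15 named falls (right), which were chosen at 2 months (grey band). Most rises are above 0 at every age, with Npl below 0 at 1, 3 and 4 months, while most falls lie near 0 at 1 month. Tgfbr3, Papss2, Cox18 and Galc are above 0 at 3 and 4 months, and Angptl2 and Magi2 at 3 months.

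The change of the difference between ages was tested directly. For 2 months minus 1 month no probe set passed in limma, and 147 of 1246 had an unadjusted p under 0.05. The named genes nearest to the threshold were Galnt7 (-0.94 ± 0.18, adjusted p = 0.0525), Ankrd17 (-0.52 ± 0.11, adjusted p = 0.095) and Cd22 (0.45 ± 0.11, adjusted p = 0.143). Without replicate 2 Galnt7 passed alone, at -1.07 (adjusted p = 0.0395). The falls that appear at 2 months in the plot of differences by age are therefore not shown to differ from 1 month. For 2 months minus the mean of the other ages 2 probe sets passed (0.161%), those of Tgfbr3 and Igfbp5.

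Igfbp5, an insulin-like growth factor binding protein also found on the connective tissue list, read 8.76, 9.67 and 9.54 in normal and 8.86, 8.67 and 9.03 in mutant retinas at 2 months. The difference of -0.47 ± 0.17 did not pass at that age (adjusted p = 0.126) and stood against 0.24, 0.84 and 0.56 at 1, 3 and 4 months. The 2 month difference was lower than the mean of the other ages by 1.02 on the log2 scale (-1.02 ± 0.19, adjusted p = 0.0257). For Tgfbr3 the differences were 0.18, 0.81 and 0.55 at the other ages, and the contrast was -1.14 ± 0.20 (adjusted p = 0.0257). Both had their high values in normal replicates 2 and 3, where Dcn was high. With log2 Dcn as a covariate the contrasts were -0.63 for Igfbp5 and -0.66 for Tgfbr3 (adjusted p = 0.686 for both), and without replicate 2 they were -0.75 and -1.0 (adjusted p = 0.292 for both, with fewer arrays). As Dcn itself read lower in mutant retinas at 2 months, the covariate fit cannot separate Dcn from genotype.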

How the data were processed

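Total retinal RNA was extracted with Trizol, labelled as biotinylated cRNA and hybridised, per the labels' protocols. The authors deposited log2 expression values made with RMA, per the submitters' processing notes. The version, the arrays normalized together and any filter were not given in the sources used here. The log2 scale was checked on the values, and medians of the 6 arrays ran from 5.15 to 5.29. Arrays carry no read depth, and their number limits the precision. RMA over all arrays can compress low signals, so small differences of dim probe sets are uncertain. Nothing was scaled again. Names came from the transcript accession in the probe set name, matched to RefSeq genes. Of 1246 probe sets 283 stayed unnamed, and 237, 38 and 91 carried the suffixes s, x and a, which mark probes that can match several transcripts.

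In R 4.3.3 with limma 3.58.1 (lmFit, eBayes) 1 model was fitted to all 24 arrays, with 8 group means and the replicate number as a block within the 2 month arrays (14 residual and 4.7 prior degrees of freedom). All p-values are 2-sided, adjusted by Benjamini-Hochberg across the 1246 probe sets of a contrast, with a threshold of 0.05. Errors are limma's standard errors. The block was set in the definition of this comparison, because both replicate 2 arrays have a high Grifin signal in these same data. Deviations from group means of same-numbered mutant and normal arrays correlated over probe sets at 0.325, 0.662 and 0.245 at 2 months. At other ages the correlations were -0.03 to 0.083. An exact test of 3 against 3 cannot go below 0.1, nor one of 3 pairs below 0.25. The genes, lists, rule and alternatives were chosen with earlier results of these data known. The named-gene rule takes the 15 largest called rises and falls with all same-numbered differences of one sign, up to 4 called members of each list or 3 by smallest p where none passed, up to 8 for tests between ages or 3 where none passed, up to 4 that depend on replicate 2, and Lgals1, Lgals3, Grifin and Dcn. Other genes named with values were chosen after these were seen. Lists used 1 probe set per gene. Alternatives changed the block, the arrays fitted, scaling, filters on dim probe sets, eBayes options, thresholds and covariates, and left out pairs and arrays. The block with Dcn as a covariate was added after seeing the data. Scripts were tested on simulated data.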

Additional observations from a re-analysis of the deposited data

Results flagged for a closer look

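The genotype difference of Igfbp5 at 2 months minus the mean difference of the other ages was -1.02, and that of Tgfbr3 was -1.14. Both were noted because the test of the difference between ages passed. Both genes were highest in normal replicates 2 and 3 of 2 months, the arrays with Dcn at 6.45 and 6.90, and without replicate 2, with fewer arrays, the values were -0.75 and -1.0 and did not pass.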

How the results depend on the processing

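Against 63 calls at 2 months, 43 passed with no replicate block, 16 in a fit of the 6 arrays with the block (12 of them among the 63), 2 in the 6 arrays with no block, 70 with a random block, 6 with Grifin and Dcn as covariates and 6 with the block and Dcn as a covariate. Fits with Dcn cannot separate it from genotype, as it read lower in mutant retinas. An adjusted p under 0.01 left 15 calls and a log2 difference of at least 0.5 left 33. Leaving out 1 pair or 1 array gave 4 to 69 calls. Single arrays were left out in fits with no block, to be read against 43. Centring each array gave 55 calls and quantile normalization 71, with 53.5% of them higher against 46% as deposited, and array weights 94. The 63 called probe sets kept their direction in every alternative that tested them. Some named genes that were not called crossed 0, for example Lgals1 (-0.29 to 0.49), Lgals3 (-0.63 to 0.24) and Grifin (-0.45 to 2.46). For 2 months minus 1 month, where 0 passed in limma (147 at an unadjusted p under 0.05), 1 passed without replicate 2, 2 after centring, 2 after quantile normalization, 1 without probe sets below the 25th percentile of mean signal and 0 with no block. For 2 months minus the other ages, against 2 calls, 1 passed with no replicate block, 0 without replicate 2 and 5 without normal replicate 1 of 4 months, 18 after centring, 1 after quantile normalization and 0 with Dcn as a covariate. Why the counts changed was not tested.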
